A study of Mus musculus with 14 samples.

Results

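Cytochrome P450 enzymes of families 1 to 4 were followed through mouse liver tumours in which the guardians of the transcription factor NRF2 had been targeted. The members are all genes whose symbol in the deposited tables is Cyp, a family number from 1 to 4, a subfamily letter and a final number. This rule found 60 genes of 17139 listed in either table: 58 of the 16821 genes of the table of Keap1 and Cul3 guides, 59 of the 16095 genes of the table of the NRF2 guide, and 57 in both. Cyp2c39 is listed in the first table only, and Cyp2c65 and Cyp4f39 in the second only. The members fall into subfamilies 1a (2 genes), 1b (1), 2a (4), 2b (3), 2c (14), 2d (7), 2e (1), 2f (1), 2g (1), 2j (3), 2r (1), 2s (1), 2u (1), 3a (7), 4a (4), 4b (1), 4f (7) and 4v (1). Symbols that end in a letter, such as Cyp4a12a, were left out by the rule.

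The samples are mouse hepatocellular carcinomas, described by the labels as driven by MYC and of hepatocyte type, whose RNA was sequenced. In every tumour Cas9 was used with 1 guide: against GFP (sgGFP, the control, tumours 1 to 4), against Cul3 (sgCul3, tumours 1 to 3), against Keap1 (sgKeap1, tumours 1 to 3) or against the ETGE motif of NRF2 (sgNrf2, tumours A and B), so all groups share MYC, Cas9 and a guide. The guides against Keap1 and Cul3 are called the ligase guides here. A second table holds the sgNrf2 tumours beside controls A and B, whose labels name them as repeats of tumours 2 and 4 of the sgGFP group. The study asked about these carcinomas with and without NRF2 activation. The labels give no age, sex or strain and do not say whether tumours came from separate animals, so the p-values take in no more than the spread among these samples, which may be technical. An edit by Cas9 is made cell by cell, and the gene counts do not show which share of a tumour carries it.

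Microsomal P450 enzymes are heme proteins of the endoplasmic reticulum that insert 1 atom of oxygen into drugs, toxins, steroids and fatty acids with electrons from the reductase POR. Families 1 to 3 are best known in the liver for the oxidation of foreign compounds, and family 4 for the omega-hydroxylation of fatty acids. Their genes respond to different sensors: family 1 to the aryl hydrocarbon receptor AHR, Cyp2b10 to CAR, Cyp3a11 to PXR and Cyp4a genes to PPARA. KEAP1 holds NRF2 through its ETGE motif and presents it to a ligase built on CUL3 for degradation, and Cyp2a5 is known in mouse liver as a gene that responds to NRF2.

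The P450 transcripts that passed the main test were few and belonged to different subfamilies. With so few tumours, a member that did not pass may still differ. In sgKeap1 tumours Cyp1a1, Cyp1a2, Cyp2a4, Cyp2a5, Cyp2j6 and Cyp2j9 rose, in sgCul3 tumours Cyp2a5 rose, and in sgNrf2 tumours Cyp2j5 rose while Cyp3a25, Cyp3a59 and Cyp4a14 fell. Levels are scaled counts, the reads of a gene divided by a size factor of the library, and a level of 0 allows up to 3 reads, or 2.02 to 6.08 scaled counts in the first table. A member was called at an adjusted p under 0.05 (limma on log2 of the deposited value plus 1, Benjamini-Hochberg over all genes tested), and tested where the mean deposited value was at least 10. This filter left 52 of 58 members of the first table and 48 of 59 of the second. A member that passes only through a group in which it is high had to differ, so the members tested do not stand for all members.

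In sgCul3 against sgGFP, 1 of 52 tested members was called higher, where 1.35% of all genes tested were, and 0 lower, where 0.851% were. At an unadjusted p under 0.05 there were 7 members, and 2241 of all 13045 genes tested. With edgeR 1 was called higher (1.3% of all genes) and 0 lower (0.59%), and with DESeq2 3 higher (3.67%) and 2 lower (3.43%). In sgKeap1 against sgGFP, 6 of 52 were called higher, against 4.45% of all genes, and 0 lower, against 3.37%. At an unadjusted p under 0.05 there were 18, and 3807 of all 13045 genes tested. With edgeR 10 were called higher (4.68%) and 0 lower (2.68%), and with DESeq2 10 higher (9.05%) and 1 lower (7.37%). For Cyp1a2, Cyp2a4 and Cyp2j6, which limma called, DESeq2 gave no adjusted p. The sgKeap1 group lay wholly above the sgGFP group for 16 of 52 members (13.1% of all genes) and wholly below it for 1 (12.6%). For sgCul3 these counts were 4 (8.71%) and 0 (7.54%).

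In sgNrf2 against controls A and B, 1 of 48 members was called higher, where 1.9% of all genes were, and 3 lower, where 2.51% were. Both sgNrf2 tumours lay above both controls for 16 members (33.3% of all genes) and below both for 15 (30.7%), which is close to the background of a comparison of 2 tumours with 2. At an unadjusted p under 0.05 there were 23, and 4236 of all 13989 genes tested. With edgeR 1 was called higher (1.29%) and 1 lower (2.03%), and with DESeq2 7 higher (8.51%) and 11 lower (10.4%). The sgGFP tumours serve both sgCul3 and sgKeap1 as controls, and controls A and B are repeats of 2 of them, so these comparisons are not independent of each other. The median log2 fold change of the tested members was 0.59 in sgCul3 (0.01 over all genes tested), 1.73 in sgKeap1 (-0.01) and -0.12 in sgNrf2 (0.04). Without the filter on low values these medians were 0.42, 1.36 and 0.05.

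**Figure D1:**
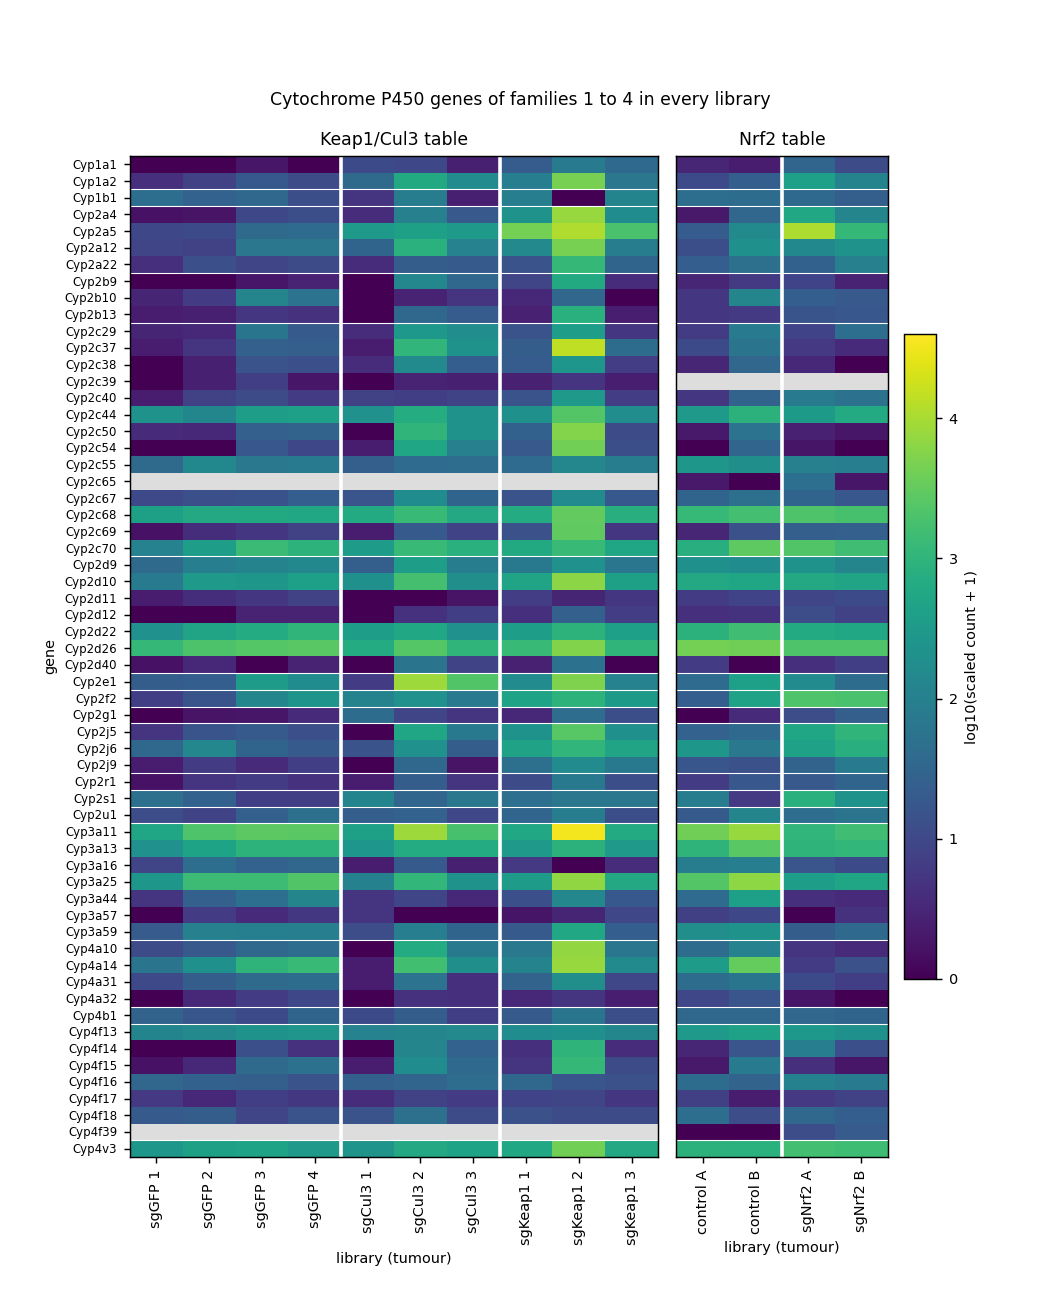
Level of every member in every library, as log10 of the scaled count plus 1, with members grouped by subfamily and libraries by guide group and table; grey marks a member that a table does not list. The column of sgKeap1 tumour 2 holds the highest value of the first table for 39 of its 58 members.

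Single tumours carried much of this pattern. Of the 10 libraries of the first table, sgKeap1 tumour 2 had the highest level of 39 of 58 members, where it was highest for 20.8% of all genes tested, and in 7 it was at least 10 times every other library. It stood above both other sgKeap1 tumours in 52 of 58 members, at a median of 6.72 times the higher of them. Without it the median log2 fold change in sgKeap1 was 0.26 over the 45 members then tested.

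This tumour also held more transcript of some liver genes outside the P450 families. Alb, which encodes albumin, stood at 1046672 scaled counts in sgKeap1 tumour 2 and at 27498 to 162273 in the other 9 libraries, and H19, a fetal imprinted transcript, at 23283 against 84368 to 343886. Afp, another fetal liver gene, did not set the tumour apart, at 20277 against 15520 to 33991. The 14 hepatocyte markers, Alb among them, summed to 1341467 in sgKeap1 tumour 2, and to 159760 to 476003 in the other libraries. Alb made up most of that highest sum. Hnf4a, another of the 14, stood at 2959 in sgKeap1 tumour 2, within the 2648 to 6488 of the others. Their part in the P450 levels was not tested. Fewer cells of a type and less RNA per cell cannot be told apart in bulk tumours. In sgCul3 the median was -0.13 without tumour 2 and 1.15 without tumour 1, over 51 members each, and sgCul3 tumour 1 alone was lowest for 18 of 58 members. In the second table control B was highest for 25 of 59 members, where it was highest for 31.8% of the genes tested there, and the sgNrf2 median was 1.07 without it, over 47 members, and -0.34 without control A, over 52.

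**Figure D2:**
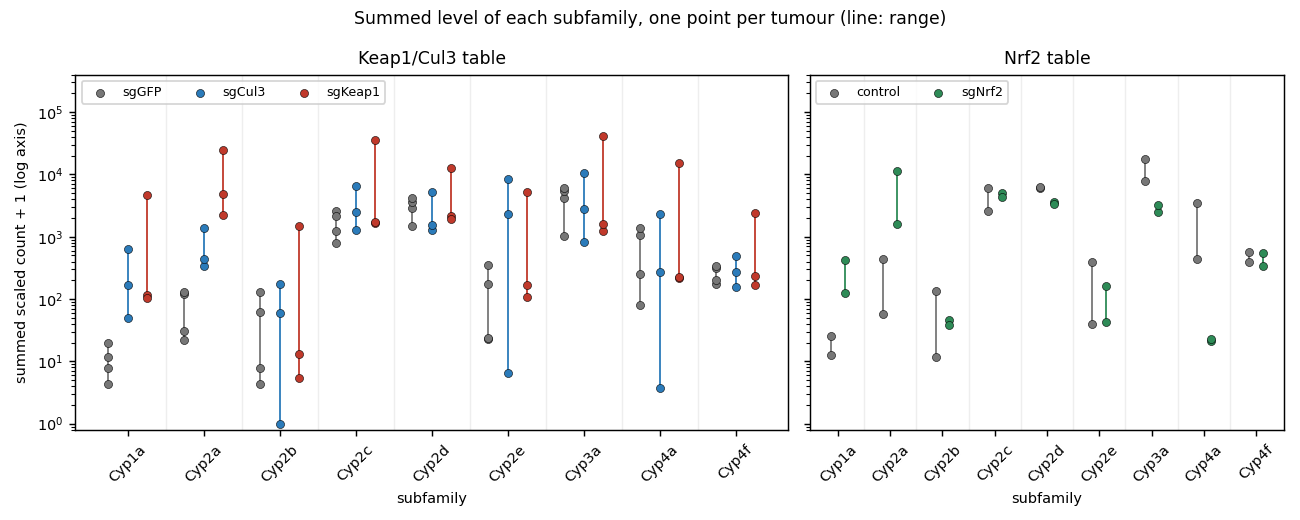
Summed scaled counts plus 1 of the members of each of 9 subfamilies in every library, on a log axis, with 1 point per tumour and a line over each group's range. The 2a sum runs from 20.9 to 128 in sgGFP and from 2219 to 24590 in sgKeap1, while the 2d sum of sgKeap1 tumours 1 and 3 lies within the sgGFP range.

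In the 2a subfamily Cyp2a5 rose with both ligase guides and Cyp2a4 rose in sgKeap1. Cyp2a5 (ENSMUSG00000005547.14, GRCm38 chr7:26835305-26843548, plus strand) is the mouse coumarin hydroxylase and counterpart of human CYP2A6. Cyp2a4 (ENSMUSG00000074254.4, chr7:26307169-26315088, plus strand) is a steroid hydroxylase that is higher in the liver of female mice. They are closely related genes that lie apart on the same chromosome. Their promoters are shown since both genes rose in the same tumours. The stretches below are 136 bases that lie upstream of both the RefSeq and the GENCODE start of each gene, without adjoining every start, in the RefSeq sequence on GRCm38.p6, plus strand, at chr7:26835169-26835304 and chr7:26307023-26307158, with capitals for the 3 bases that differ between them.
Cyp2a5: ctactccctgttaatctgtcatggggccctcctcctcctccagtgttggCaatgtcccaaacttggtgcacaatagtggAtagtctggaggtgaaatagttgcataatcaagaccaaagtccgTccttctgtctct
Cyp2a4: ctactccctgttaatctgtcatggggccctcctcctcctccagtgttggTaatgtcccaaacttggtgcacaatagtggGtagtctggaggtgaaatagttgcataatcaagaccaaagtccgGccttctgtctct
Of these bases 133 of 136 are identical, and over the 250 bases before the RefSeq starts 245 of 251 aligned columns are (97.6%). In their transcripts too, 31.0% of the 50-base windows of Cyp2a5 also occur in Cyp2a4 and 36.1% of those of Cyp2a4 in Cyp2a5, so reads of one may have been counted for the other or discarded as not unique.

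Cyp2a5 stood at 8.77, 9.97, 38.1 and 40.3 scaled counts in sgGFP tumours 1 to 4, at 300, 403 and 295 in sgCul3 tumours 1 to 3, and at 4388, 11098 and 1937 in sgKeap1 tumours 1 to 3. The 3 groups did not overlap, with sgCul3 between the others. Its log2 fold change was 3.94 ± 0.62 (SE) in sgCul3 and 7.72 ± 0.62 in sgKeap1, with limma adjusted p of 0.010 and 7.5e-05. Without sgKeap1 tumour 2 the latter was 7.08, with an adjusted p of 0.00056. The call in sgCul3 was missed without sgCul3 tumour 1, at a log2 fold change of 4.0 and an adjusted p of 0.0503. In the second table the controls had 20.5 (A) and 161 (B) scaled counts of Cyp2a5, and the sgNrf2 tumours 10808 (A) and 1180 (B). Both edited tumours lay above both controls, but the difference between the members of each pair was wide, and the log2 fold change of 5.92 ± 1.39 did not pass (limma adjusted p = 0.075).

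Cyp2a4 had 0.675, 0.767, 8.86 and 11.6 scaled counts in sgGFP, 2.76, 99.3 and 18.0 in sgCul3, and 217, 7861 and 170.3 in sgKeap1. All sgKeap1 tumours were above the sgGFP tumours, and sgCul3 tumour 1 was within their range. The log2 fold change was 6.86 ± 1.35 in sgKeap1 (limma adjusted p = 0.015), or 5.08 (adjusted p = 0.039) without sgKeap1 tumour 2, and 1.89 ± 1.35 in sgCul3 (adjusted p = 0.52). The controls held 1.08 and 31.6 scaled counts of it and the sgNrf2 tumours 554 and 123, with a change of 4.99 ± 1.49 on the log2 scale (limma adjusted p = 0.11). The other members of the subfamily, Cyp2a12 and Cyp2a22, had log2 fold changes of 3.93 and 3.06 in sgKeap1 (adjusted p = 0.11 and 0.13). Cyp2a22 had 13.9, 1166 and 28.9 scaled counts in sgKeap1 tumours 1 to 3, so 1 tumour set most of its mean.

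In the 1a subfamily the enzymes that AHR induces, Cyp1a1 and Cyp1a2, oxidise aromatic hydrocarbons and aromatic amines. Cyp1a1 (ENSMUSG00000032315.5, GRCm38 chr9:57687928-57703824, plus strand) and Cyp1a2 (ENSMUSG00000032310.3, chr9:57676937-57683703, minus strand) lie head to head. The 120 bases before the RefSeq start of Cyp1a1 (GRCm38.p6, chr9:57697493-57697612, plus strand), which lie in an intron of its longer annotated transcript, are shown with the letters GCGTG, the core to which AHR binds, in capitals, 54 bases before the start.
Cyp1a1: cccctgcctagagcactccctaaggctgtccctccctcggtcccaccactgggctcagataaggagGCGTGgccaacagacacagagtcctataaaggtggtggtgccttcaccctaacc
On either strand of windows from 250 bases before to 50 after a RefSeq start, GCGTG occurs in 32.4% of 32851 windows and in 10 of the 50 members with a window. Among the 9 called members with a window it occurs in Cyp1a1 and Cyp2j9. The letters TGACNNNGC, the core of the antioxidant response element to which NRF2 binds, occur in 12.4% of all windows. They occur in 5 of the 50 members and, among the called members, in Cyp2j6 alone. That match lies 16 bases after the start of Cyp2j6, on the strand opposite to the gene. A match is a description of these letters only.

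Cyp1a1 was nearly absent from control tumours. The 4 sgGFP tumours together held 1 read, the sgCul3 tumours 19 and the sgKeap1 tumours 90. In scaled counts these were 9.67, 8.86 and 1.56 in sgCul3 and 21.2, 79.1 and 36.1 in sgKeap1, all above the highest sgGFP tumour at 0.886. The pooled ratio was 30.5 in sgCul3 (95% counting interval 4.85 to 1269) and 188 in sgKeap1 (32.9 to 7504), intervals that cover counting error only. The limma adjusted p was 0.15 in sgCul3, where the gene did not pass, and 0.0024 in sgKeap1. Cyp1a1 reached the filter's mean of 10 only through the sgKeap1 tumours, so the filter favoured a difference there. Without the filter its limma adjusted p in sgKeap1 was 0.0010. The controls of the second table had 2.16 and 1.27 scaled counts and sgNrf2 tumours 30.79 and 10.49, or 3 against 50 reads, a pooled ratio of 12.0 (3.89 to 60.3) that did not pass (limma adjusted p = 0.099).

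Cyp1a2 had 3.37, 6.90, 17.7 and 10.7 scaled counts in sgGFP, 38.7, 632 and 167 in sgCul3, and 93.2, 4575 and 64.9 in sgKeap1. Every tumour of both ligase guides lay above every sgGFP tumour, as for 8.71% of all genes tested in sgCul3 and 13.1% in sgKeap1. The level in sgKeap1 tumour 2 stood far above the rest. The log2 fold change was 3.96 ± 1.33 in sgCul3 (limma adjusted p = 0.16) and 4.88 ± 1.33 in sgKeap1 (adjusted p = 0.048). Without sgKeap1 tumour 2 it was 2.93 (adjusted p = 0.13), and the call was also lost without sgKeap1 tumour 3 or any 1 of the sgGFP tumours, at adjusted p of 0.059 to 0.097, with a pseudocount of 5 (0.058) and with the 2 groups alone (0.053). In sgNrf2 tumours it had 391 and 112 scaled counts against 9.70 and 22.8 in the controls, which is 3.72 ± 0.78 on the log2 scale (limma adjusted p = 0.064). The related Cyp1b1, an AHR-induced enzyme found mainly outside hepatocytes, had 90.7, 0 and 118 scaled counts in sgKeap1 and 11.6 to 45.2 in sgGFP, a log2 fold change of -0.03 (adjusted p = 0.99).

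Other genes that AHR induces were counted beside them. Of 6 tested AHR targets outside the P450 families, 1 was called higher in sgCul3 (1.35% of all genes tested) and 1 in sgKeap1 (4.45%). In each it was Nqo1, which is also a target of NRF2. In sgNrf2 2 of 7 were called higher (1.9% of all genes tested), Nqo1 and the glucuronosyltransferase Ugt1a6b (log2 fold change 3.07).

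**Figure D3:**
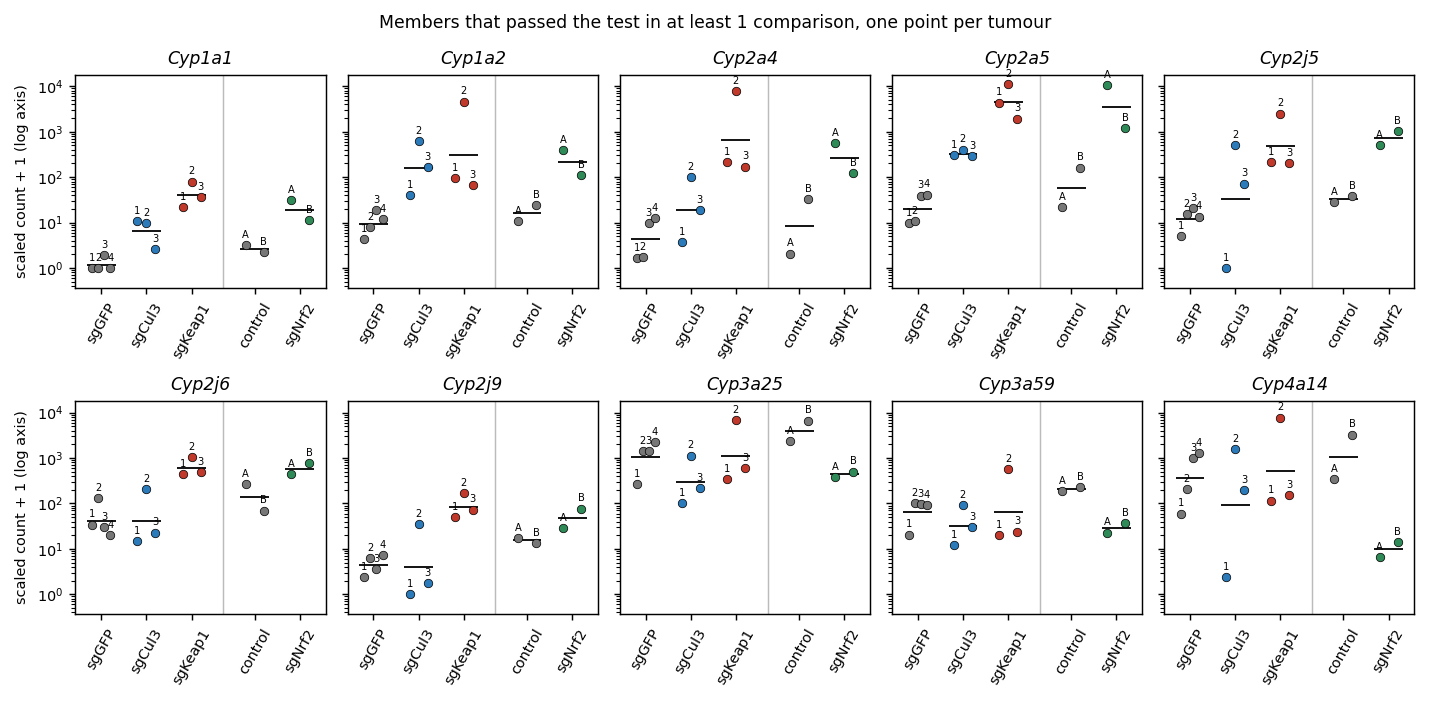
Scaled counts plus 1, on a log axis, of the 10 members called in at least 1 comparison. Each point is a tumour marked by its number or letter, and the line in each group is the geometric mean. Cyp2a5 forms 3 levels without overlap in sgGFP, sgCul3 and sgKeap1, and Cyp4a14 stands at 5.67 and 13.1 in sgNrf2 against 340 and 3256 in its controls.

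The 2j enzymes convert arachidonic acid to epoxides, and all 3 lie side by side on chromosome 4. Cyp2j5 (ENSMUSG00000052520.7, GRCm38 chr4:96628773-96664154), Cyp2j6 (ENSMUSG00000052914.4, chr4:96516138-96553661) and Cyp2j9 (ENSMUSG00000015224.10, chr4:96568429-96591578) are all on the minus strand. They share at most 0.422% of their 50-base windows with other genes, so few of their reads could belong elsewhere. In sgKeap1 all 3 genes lay wholly above sgGFP, as did 13.1% of all genes tested.

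Cyp2j6 had 33.1, 132, 29.2 and 18.8 scaled counts in sgGFP, 13.8, 208 and 21.9 in sgCul3, and 440.5, 1056 and 479 in sgKeap1. The sgKeap1 tumours stood above all others, while sgCul3 tumours spread around the controls. The log2 fold change in sgKeap1 was 3.86 ± 0.85 (limma adjusted p = 0.023) and in sgCul3 0.04 ± 0.85 (adjusted p = 0.99). Cyp2j9 followed at lower levels, with 1.35, 5.37, 2.66 and 6.26 in sgGFP, 0, 34.6 and 0.782 in sgCul3, and 48.2, 166 and 72.2 in sgKeap1. Again every sgKeap1 tumour was above every other. Its log2 fold change in sgKeap1 was 3.95 ± 0.90 (limma adjusted p = 0.027). Like Cyp1a1, Cyp2j9 reached the filter's mean only through the sgKeap1 tumours, so the filter favoured a difference there. With no filter the limma adjusted p of Cyp2j9 in sgKeap1 was 0.023. Without sgKeap1 tumour 2 both genes had a log2 fold change of 3.46 and no longer passed (adjusted p = 0.10 and 0.12). Both calls were also lost without sgKeap1 tumour 3, sgGFP tumour 1 or sgGFP tumour 3, at adjusted p of 0.0504 to 0.089.

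Cyp2j5 had 4.05, 14.6, 19.5 and 12.5 scaled counts in sgGFP, 0, 515 and 71.2 in sgCul3, and 217, 2507 and 202 in sgKeap1. The sgKeap1 tumours were above all sgGFP tumours, but the log2 fold change of 5.18 ± 1.53 narrowly missed the threshold (limma adjusted p = 0.061, and 0.031 with edgeR). In the second table it stood at 27.0 and 36.7 in the controls, against 499 and 1023 in the edited tumours. Both pairs were tight by the measure of these genes, and Cyp2j5 was the member called higher in sgNrf2, at 4.46 ± 0.46 (limma adjusted p = 0.031), although not without sgNrf2 tumour B (0.098). Cyp2j6 and Cyp2j9 lay above both controls in both sgNrf2 tumours, as did 33.3% of all genes tested. Their log2 fold changes of 2.08 ± 0.72 and 1.61 ± 0.66 did not pass (limma adjusted p = 0.14 and 0.18).

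The 3a subfamily, the drug and steroid hydroxylases led in mouse liver by the PXR target Cyp3a11, had limma calls in sgNrf2. Of 6 tested members 0 were called in sgCul3 and 0 in sgKeap1, by limma and by edgeR, while DESeq2 called Cyp3a44 lower in sgCul3 and Cyp3a16 lower in sgKeap1. The difference between the tables was not tested. Log2 fold changes in sgKeap1 were above 0 for 3 and below for 3. In sgNrf2 all 6 were below 0, 5 of them without overlap with the controls, as for 30.7% of all genes tested, and 2 fell: Cyp3a25 and Cyp3a59.

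Cyp3a25 (ENSMUSG00000029630.15, GRCm38 chr5:145977194-146009618, minus strand) had 2369 and 6638 scaled counts in the controls of the second table, and 386 and 503.5 in the sgNrf2 tumours. The lower control was several times the higher edited tumour. Its log2 fold change was -3.17 ± 0.52 (limma adjusted p = 0.047), and 0.0505 with edgeR. In the first table it had 269, 1446, 1406 and 2258 in sgGFP, 102, 1127 and 217 in sgCul3, and 349, 6837 and 589 in sgKeap1. These groups overlapped, with log2 fold changes of -1.84 ± 1.09 in sgCul3 and 0.09 ± 1.09 in sgKeap1 (limma adjusted p = 0.42 and 0.97).

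Cyp3a59 (ENSMUSG00000061292.10, chr5:146079257-146113287, plus strand), which shares 24.7% of its 50-base windows with Cyp3a25, had 183 and 226.5 scaled counts in the controls and 21.9 and 35.8 in sgNrf2. Its log2 fold change was -2.82 ± 0.43 (limma adjusted p = 0.044). The calls of both genes were lost when either sgNrf2 tumour was left out, at adjusted p of 0.098 to 0.22, and that of Cyp3a59 also without control B (0.059). In the first table it had 19.6, 99.7, 96.5 and 90.4 in sgGFP, 11.1, 92.2 and 28.9 in sgCul3 and 18.8, 565.5 and 23.1 in sgKeap1, with overlap in both comparisons.

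Cyp3a11 itself (chr5:145854426-145879964, minus strand) had 4076 and 7797 scaled counts in the controls and 1069 and 1549 in sgNrf2, at -2.13 ± 0.38 on the log2 scale, just short of the threshold (limma adjusted p = 0.052). Cyp3a16, an enzyme of fetal and newborn mouse liver, had 88.4 and 91.1 against 15.4 and 9.62, at -2.78 (adjusted p = 0.0503). Cyp3a16 was also the member that lay wholly below sgGFP in sgKeap1, with 4.90, 0 and 2.89 against 8.10 to 44.5, at -2.68 ± 0.79 (adjusted p = 0.060). Cyp3a44 had 38.8 and 392.3 scaled counts in the controls and 3.24 and 2.62 in sgNrf2, at -5.00 ± 1.16 (adjusted p = 0.074). Cyp3a13, in contrast, had 992 and 2682 against 997 and 1098, so the groups overlapped (-0.64, adjusted p = 0.41).

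In the 4a subfamily, omega-hydroxylases of fatty acids and textbook targets of PPARA, all 3 tested members lay below both controls in both sgNrf2 tumours, which held for 30.7% of all genes tested. Cyp4a14 (ENSMUSG00000028715.2, GRCm38 chr4:115486200-115496142, minus strand) had 340 and 3256 scaled counts in the controls, and 5.67 and 13.1 in the sgNrf2 tumours. The controls differed widely from each other, yet the lower of them was far above the edited tumours. Its log2 fold change of -6.76 ± 1.14 (limma adjusted p = 0.047) was the most negative among the members. The call was missed with edgeR (0.056) and without either sgNrf2 tumour (0.089 and 0.095).

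Cyp4a10 (chr4:115518264-115533649, plus strand) had 42.0 and 110.1 scaled counts in the controls and 4.05 and 2.62 in sgNrf2, at -4.02 ± 0.69 (limma adjusted p = 0.0501). Cyp4a31 had 42.0 and 60.8 against 9.72 and 6.12, at -2.56 ± 0.55 (adjusted p = 0.067). Of the 50-base windows of Cyp4a10, 30.5% occur in other genes, and of Cyp4a14 0.245%. Control A, with the lower level of both, is the repeat of sgGFP tumour 2.

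In the first table the 4a genes were not called. Cyp4a14 had 58.7, 206, 987 and 1297 scaled counts in sgGFP, 1.38, 1595 and 192 in sgCul3, and 114, 7776 and 151.5 in sgKeap1. The groups overlapped, and the log2 fold changes were -1.81 ± 2.01 and 0.54 ± 2.01 (limma adjusted p = 0.70 and 0.88). Cyp4a10 had 69.5, 7064 and 62.0 in sgKeap1, above the sgGFP range of 10.1 to 43.0, at 3.66 ± 1.91 (adjusted p = 0.22). Whether sgNrf2 and ligase-guide tumours differ in these genes was not tested, since the tables were scaled separately.

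Other targets of PPARA were counted beside the 4a genes. In sgNrf2 3 of 21 were called lower, where 2.51% of all genes tested were. They were the acyl-CoA thioesterases Acot2 (log2 fold change -3.50) and Acot1 (-3.0) and the kinase Pdk4 (-2.97). Ppara itself fell in sgCul3, at -1.60 (limma adjusted p = 0.042), and did not pass in sgKeap1, at -1.11 (0.068). In sgNrf2 Ppara had 396 and 334 scaled counts against 377 and 227 in the controls, at 0.31 (limma adjusted p = 0.56). Of the targets, 2 fell in sgCul3 (0.851% of all genes tested), Creb3l3 and Cpt1a. In sgKeap1 1 of 21 PPARA targets was called higher (4.45% of all genes tested), Vnn1 (4.01), and 2 lower (3.37%), Cpt1b and Cpt1a.

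**Figure D4:**
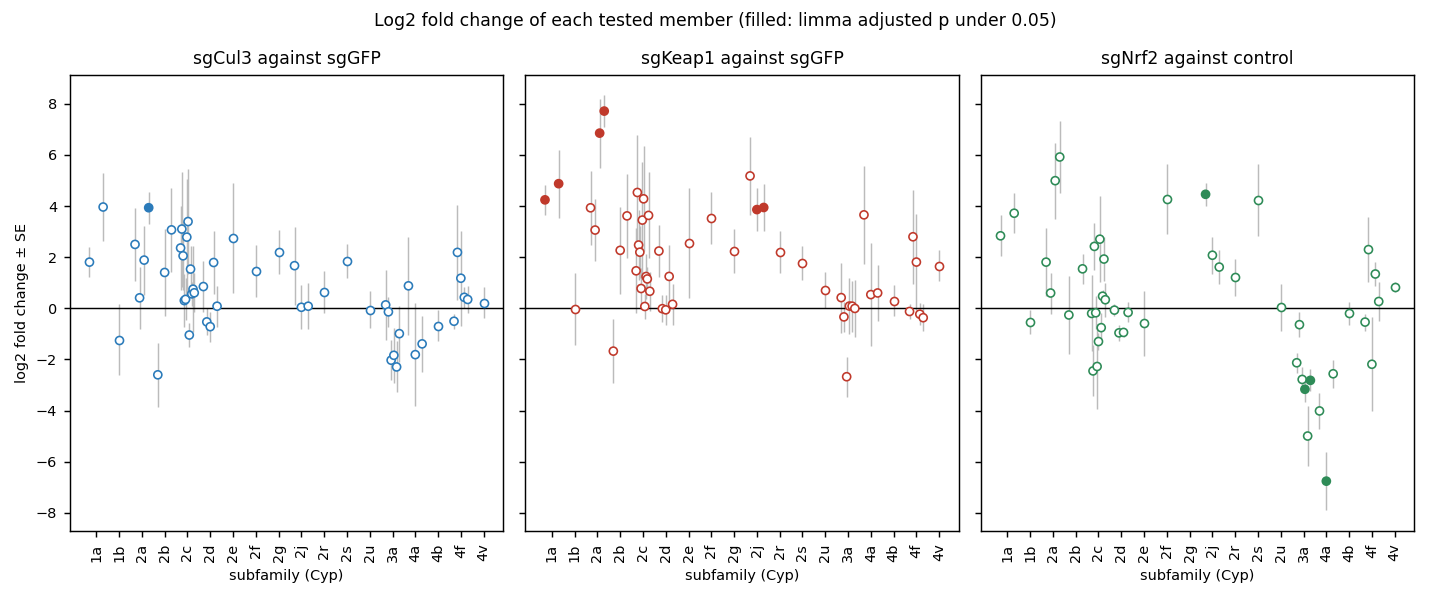
Log2 fold change with its standard error for every tested member in each comparison with the control tumours, in order of subfamily, with called members filled. The 3a and 4a members lie below 0 in sgNrf2 and spread around or above 0 in sgKeap1, and Cyp2a5 is the highest in sgKeap1 at 7.72.

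The 2c subfamily, epoxygenases and drug hydroxylases, is the largest, and none of its members was called by limma in any comparison. In sgKeap1 all 12 tested members had log2 fold changes above 0, from 0.07 to 4.53. Of these 12, 1 lay wholly above sgGFP, as did 13.1% of all genes tested. Without sgKeap1 tumour 2, Cyp2c29 (-0.28), Cyp2c44 (-0.43) and Cyp2c55 (-0.31) were below 0, and Cyp2c40 and Cyp2c69 were not tested. With all tumours edgeR called Cyp2c69 and DESeq2 Cyp2c50 and Cyp2c68. At an unadjusted p under 0.05 there was 1 in sgKeap1, 0 in sgCul3 and 2 in sgNrf2. Over all genes there were 3807 and 2241 of 13045, and 4236 of 13989. The case of Cyp2c37 shows how 1 tumour set these values: it had 1.35 to 24.8 scaled counts in sgGFP, 22.1, 14504 and 41.8 in sgKeap1, and 1.38, 1058 and 216 in sgCul3. Among these, sgKeap1 tumour 2 and sgCul3 tumours 2 and 3 stood far above sgGFP.

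Cyp2c70, which makes the muricholic acids of rodent bile and is the most abundant 2c transcript per kb in sgGFP tumours, had 110.0, 361, 1344 and 942 scaled counts there, 345, 1316 and 836 in sgCul3, and 623, 1303 and 531 in sgKeap1. The groups overlapped. Its log2 fold changes were 0.61 ± 0.76, 0.67 ± 0.76 and, in sgNrf2, 0.34 ± 0.66 (limma adjusted p = 0.73, 0.58 and 0.76). Cyp2c68 had the narrower spread, with 409.5 to 616 in sgGFP and 683, 3146 and 798 in sgKeap1, all above, at 1.15 ± 0.48 (adjusted p = 0.14). Cyp2c55 had 276 and 196 in the controls against 98.03 and 90.03 in sgNrf2, at -1.30 ± 0.34 (adjusted p = 0.087).

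The 2d subfamily held the highest P450 transcript per kb of the control tumours. Cyp2d26 (ENSMUSG00000022445.6, GRCm38 chr15:82790101-82794294, minus strand) stood at 1166 ± 382 scaled counts per kb of exon in sgGFP (SD, n = 4). Its scaled counts were 1143, 2055, 2460 and 2697 in sgGFP, 688, 2467 and 1036 in sgCul3, and 1254, 5374 and 1029 in sgKeap1, which overlap. In sgNrf2 it had 2144 and 2181 against 4348 and 3975 in the controls. Both pairs were tight, and the log2 fold change of -0.94 ± 0.17 missed the threshold narrowly (limma adjusted p = 0.053). Of 4 tested 2d members 0 were called in sgNrf2 by limma and by edgeR. An unadjusted p under 0.05 was held by 2, and by 4236 of all 13989 genes tested. DESeq2 called 2 lower, Cyp2d22 and Cyp2d26. Cyp2d10 had 81.0 to 394 in sgGFP and 480, 6191 and 418.5 in sgKeap1, at 2.24 ± 1.01 (adjusted p = 0.17).

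In the 2b subfamily Cyp2b10, the classic CAR target, had 2.02, 5.37, 124 and 55.5 scaled counts in sgGFP, 0, 1.77 and 3.91 in sgCul3, and 2.45, 32.4 and 0 in sgKeap1. The control tumours already covered this whole range apart from the tumours at 0 or under 2. Its log2 fold changes were -2.60 ± 1.25 and -1.67 ± 1.25 (limma adjusted p = 0.32 and 0.39), and in sgNrf2 -0.26 ± 1.52, with 4.31 and 123 in the controls and 22.7 and 18.4 in the edited tumours. Cyp2b9 and Cyp2b13, which are higher in female mouse liver, reached 630 and 835 scaled counts in sgKeap1 tumour 2 and at most 8.17 in the other sgKeap1 tumours. Of 14 tested targets of CAR and PXR outside these families, 2 were called higher in sgCul3 (1.35% of all genes tested) and 5 in sgKeap1 (4.45%). In sgNrf2 2 of 15 were called higher (1.9%) and 3 lower (2.51%).

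Cyp2e1, the pericentral enzyme that oxidises ethanol and other small molecules, spread widely within groups. It had 21.6, 23.0, 352 and 174.5 scaled counts in sgGFP, 5.53, 8387 and 2278 in sgCul3, and 165, 5195 and 108 in sgKeap1. One sgCul3 tumour was below all controls and the other two far above them. The log2 fold changes of 2.75 ± 2.16 and 2.55 ± 2.16 did not pass (limma adjusted p = 0.56 and 0.45). In the second table it had 38.8 and 391 in the controls and 163 and 41.1 in sgNrf2, which overlap. Beside this, 10 pericentral markers summed to 22448 in sgKeap1 tumour 2 and to 2103 to 7280 in the other libraries.

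The 4f subfamily, hydroxylases of leukotrienes and fatty acids, had 0 of 5 tested members called in each comparison by limma, edgeR and DESeq2, and 1 at an unadjusted p under 0.05, Cyp4f16 in sgNrf2. Its main transcript per kb, Cyp4f13, had 117, 146.5, 231 and 251.5 scaled counts in sgGFP, 110.5, 121 and 145 in sgCul3, and 168, 201 and 128 in sgKeap1. This is a narrow spread beside that of the other members, and the groups overlapped. The log2 fold changes were -0.51 ± 0.30 and -0.12 ± 0.30, and -0.54 ± 0.33 in sgNrf2, with 292 and 425 in the controls and 288 and 204 in the edited tumours (limma adjusted p = 0.42, 0.81 and 0.33).

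Among the members of the remaining subfamilies none was called by limma. Cyp2f2, the periportal enzyme that oxidises naphthalene, had 6.07 to 236 scaled counts in sgGFP and 459, 959 and 323 in sgKeap1, at 3.54 ± 1.01 (adjusted p = 0.055), and 2158 and 1903 in sgNrf2 against 22.6 and 451 in the controls, at 4.29 ± 1.37 (adjusted p = 0.12). Cyp4v3, a fatty acid hydroxylase, had 269 to 459 in sgGFP and 562, 4091 and 597 in sgKeap1, at 1.67 ± 0.61 (adjusted p = 0.10), and 1689 and 1465 against 914 and 861 in the second table, at 0.83 ± 0.19 (adjusted p = 0.073). For both genes every sgKeap1 tumour lay above every sgGFP tumour, as for 13.1% of all genes tested. Both sgNrf2 tumours lay above both controls, as for 33.3%. Cyp2s1 had 847 and 220.3 in sgNrf2 and 85.2 and 5.06 in the controls, at 4.24 ± 1.40 (adjusted p = 0.13). Cyp2r1, a vitamin D hydroxylase, had 0.675 to 5.31 in sgGFP and 10.6, 71.0 and 11.5 in sgKeap1, at 2.21 ± 0.81 (adjusted p = 0.10).

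**Figure D5:**
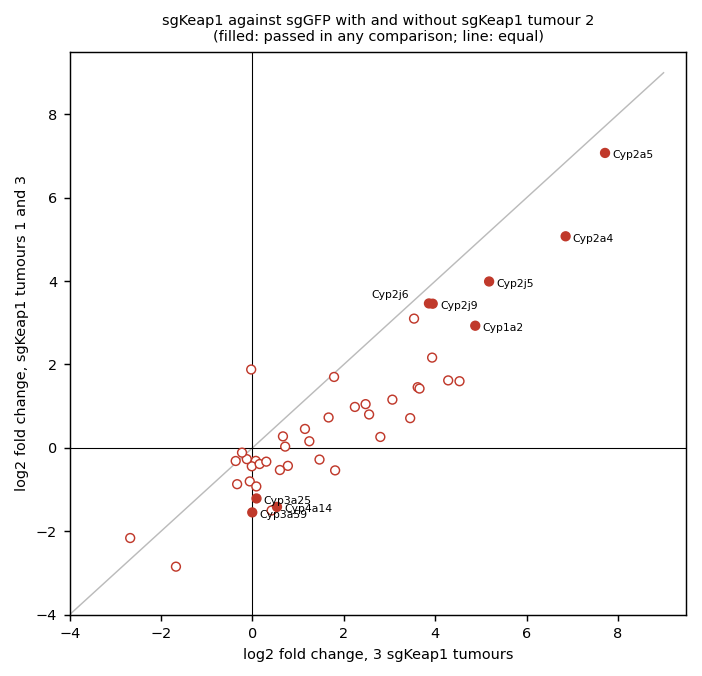
Log2 fold change of the members in sgKeap1 against sgGFP with all 3 sgKeap1 tumours and without tumour 2. The median of the tested members moves from 1.73 to 0.26, while Cyp2a5 stays at 7.08 and Cyp2a4 at 5.08; Cyp1a1 is not drawn, since its mean falls under the filter without this tumour.

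The difference between the ligase guides was tested in the same fit. Between sgKeap1 and sgCul3, limma called 0 of 52 members in either direction, where 0.0307% of all genes were called in each. With edgeR 0 were called (0.023% of all genes in each direction), and with DESeq2 1 was higher, Cyp2a5 (0.491%), and 0 lower (0.307%). At an unadjusted p under 0.05 there were 7, and 1315 of all 13045 genes tested. The sgKeap1 group lay wholly above sgCul3 for 7 members (7.52% of all genes) and wholly below for 0 (8.24%). Cyp2a5 differed by 3.78 ± 0.66 on the log2 scale (limma adjusted p = 0.099), Cyp2a4 by 4.97 ± 1.45 (0.37), Cyp2j6 by 3.82 ± 0.91 (0.26), Cyp2j9 by 3.86 ± 0.97 (0.32) and Cyp1a2 by 0.91 ± 1.42 (0.82). The 95% interval of the difference in Cyp2a5 ran from 2.33 to 5.23 before adjustment for the number of genes, and that in Cyp1a2 from -2.21 to 4.03. Without sgCul3 tumour 2, Cyp2j6 and Cyp2j9 were called higher in sgKeap1.

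Per kb of exon, the leading members of the sgGFP tumours after Cyp2d26 were Cyp3a25 at 646 ± 393, Cyp3a11 at 399 ± 206, Cyp2c70 at 348 ± 282 and Cyp4a14 at 245 ± 230 scaled counts per kb (SD, n = 4). These spreads overlap, and with the length of the longest protein-coding transcript in place of all exons Cyp3a11 stood at 866 and Cyp3a25 at 672. Leading members of the other subfamilies were lower, at 66.1 for Cyp2e1, 42.0 for Cyp4f13, 22.1 for Cyp2b10, 11.7 for Cyp2a5 and 4.81 for Cyp1a2. All members together held 0.0515% to 0.149% of reads on genes in sgGFP, 0.051% to 0.388% in sgCul3, and 0.136%, 1.15% and 0.102% in sgKeap1 tumours 1 to 3. Their share was 0.0977% and 0.163% in the second table's controls, and 0.176% and 0.111% in sgNrf2, so sgKeap1 tumour 2 and sgCul3 tumour 2 exceeded every sgGFP tumour, and sgNrf2 tumour A narrowly exceeded both of its controls.

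Among the electron donors and heme synthesis genes on which P450 enzymes depend, 13 were tested, and limma called 0 in sgCul3. It called 1 higher in sgKeap1 (4.45% of all genes tested) and 1 lower in sgNrf2 (2.51%). At an unadjusted p under 0.05 there were 3, 5 and 5, against 2241 and 3807 of 13045 and 4236 of 13989 genes. In sgKeap1 Pgrmc1, a heme-binding partner, rose by 2.12 on the log2 scale (limma adjusted p = 0.0050). In sgNrf2 Por, the reductase itself, fell, from 7049 and 8549 scaled counts in the controls to 2758 and 2212, at -1.65 ± 0.22 (limma adjusted p = 0.039). Of 23 regulators of P450 genes, 1 fell in sgCul3 (Ppara), 1 in sgKeap1 (Rxra, -0.96) and 2 in sgNrf2: Nr0b2 (-6.05), which encodes the repressor SHP, and Cux2 (-6.06), a factor that is higher in female mouse liver. Of all genes tested 0.851%, 3.37% and 2.51% were called lower in these comparisons. The genes of CAR and PXR, Nr1i3 and Nr1i2, had log2 fold changes of -1.22 and -1.49 in sgNrf2 that did not pass (limma adjusted p = 0.054 and 0.067).

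P450 genes of other families were counted beside these. Of 12 tested in each table, 2 were called higher in sgCul3 (1.35% of all genes tested), 2 in sgKeap1 (4.45%) and 3 in sgNrf2 (1.9%). Cyp7b1, an oxysterol hydroxylase that is higher in male mouse liver, rose by 4.95, 5.82 and 7.51 on the log2 scale, and Cyp8b1, the sterol 12-alpha-hydroxylase of cholic acid synthesis, by 3.22, 3.86 and 6.45. Cyp7a1, the rate-limiting enzyme of bile acid synthesis, rose in sgNrf2 by 4.25. Sex is not in the labels, but Xist, which marks an inactive X chromosome, was detected in all 14 libraries, though not evenly. It had 6235 to 11476 scaled counts in sgGFP, 2856 to 5290 in sgCul3 and 3087 to 5459 in sgKeap1. In the second table it had 18199 and 25068 in the controls and 9423 and 10924 in sgNrf2. Xist was called lower in sgKeap1 (-1.13, limma adjusted p = 0.045), and not in sgCul3 or sgNrf2 (0.080 and 0.078). Of other genes higher in female liver, 3 of 4 fell in sgNrf2 (2.51% of all genes tested), led by Sult2a1 at -5.09. Of 7 tested P450 members higher in female liver, limma called 0 there, and the median of the 7 was 1.55. Among them 5 had an unadjusted p under 0.05, as had 4236 of all 13989 genes tested.

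Marks of other cells and of the guides themselves were as follows. Of 29 NRF2 targets 18 were called higher in sgCul3 (1.35% of all genes tested), 21 in sgKeap1 (4.45%) and 15 in sgNrf2 (1.9%). This list and the others were drawn up with results of these tumours known. Keap1 fell in sgKeap1 (log2 fold change -0.77 ± 0.21, limma adjusted p = 0.048), Cul3 stood at -1.70 ± 0.39 in sgCul3 (adjusted p = 0.051), and Nfe2l2, which encodes NRF2, at -0.05 in sgNrf2 (adjusted p = 0.89), where an edit need not change the mRNA level. Hepatocyte markers were present in every tumour, and summed to 444830 and 533012 in sgNrf2 against 622495 and 1003495 in the controls. In sgNrf2 1 of 14 was called lower, Ass1, where 2.51% of all genes tested were. Erythroid markers were lower for 4, 6 and 8 of 11 in sgCul3, sgKeap1 and sgNrf2, and neutrophil markers for 0, 8 and 3 of 11. Macrophage markers were lower for 0, 0 and 2 of the 10, 10 and 9 tested. Of all genes tested 0.851%, 3.37% and 2.51% were lower. Cholangiocyte markers were higher for 2, 3 and 0 of the 7, 7 and 8 tested, against 1.35%, 4.45% and 1.9% of all genes. The part of these in the P450 values was not tested. The repeats were close to their first libraries. In CPM, control A was within a factor of 2 of sgGFP tumour 2 in 32 of 32 members with at least 10 reads in both, and control B of sgGFP tumour 4 in 40 of 41.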

How the data were processed

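RNA of liver tumours was extracted with a Qiagen kit and made into libraries with an Illumina TruSeq kit, per the labels' protocols. The authors deposited 2 tables whose values are a signal: HTSeq gene counts scaled by DESeq, per the submitters' processing notes, which also name Picard and mm10. For the aligner, the versions and the strand setting: not given in the sources used here. Every entry of the first table carries an added 1. With it removed, 100% of values per library lay within 0.1 reads of a multiple of that library's own unit, which gave the reads back. Libraries held 6333025 to 12008223 gene reads (Keap1 and Cul3 table) and 17819333 to 20848578 (NRF2 table). In the latter, entries naming no gene held 65.3% and 66.8% of the total in the controls and 52.4% and 54.0% in sgNrf2, mostly reads whose alignment was not unique. Symbols were repaired by gene ID (21 and 22), and Cyp2c44 is Cyp2c23 in GENCODE M21, which gave coordinates and exon lengths on GRCm38 and holds 16769 and 16048 of the IDs.

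Groups were taken from the labels. The tests used limma 3.58.1 in R 4.3.3 with a mean-variance trend, two-sided, on log2 of the deposited value plus 1, where a gene's mean reached 10, with the 3 groups of the first table in 1 fit. Each table was tested alone. Levels in the text are scaled counts without the added 1, and adjusted p-values are those of limma unless edgeR 4.0.16 or DESeq2 1.42.0, run on recovered reads, is named; the scripts were tested on simulated data. DESeq2 gave no adjusted p for 15 members in each comparison of the first table and 2 in the second. Fold changes on this scale understate the change of low genes. Members described in full were those called in any comparison and the member with the highest sgGFP level per kb of exon in each larger subfamily; others are given by range, count or value. The members, lists and this rule were chosen with earlier results of these data known. Alternatives were a pseudocount of 5, the added 1 removed, no filter, a mean of at least 50, equal totals, quantile normalization, edgeR, DESeq2, each library left out, the 2 groups alone and a block of tumour number. Deviations from the group mean correlated between sgGFP and sgCul3 tumours of the same number (0.164, 0.175 and 0.314). Tumours of different numbers were not compared in this way, so these values cannot show pairing. The main fit therefore has no block. The block leaves out sgGFP tumour 4. Promoter sequences are those of RefSeq, matched by symbol for 50 of 60 members, and 50-base windows were compared between GENCODE transcripts.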

Additional observations from a re-analysis of the deposited data

Results flagged for a closer look

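Some values stood apart within the sgGFP tumours, judged by the gap of the highest or lowest tumour to its nearest neighbour as a share of the group's range; chance marks about 1 in 20 groups of this size. For Cyp1a1 this share was 1.0, since its only sgGFP read was in tumour 3. For Cyp2j6 it was 0.874, with sgGFP tumour 2 at 132 scaled counts and the others at 18.8 to 33.1. For Cyp3a59 it was 0.883, with sgGFP tumour 1 at 19.6 and the others at 90.4 to 99.7.

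Cyp4a10 lay on opposite sides of its controls. Every sgKeap1 tumour was above every sgGFP tumour (13.1% of all genes tested) and both sgNrf2 tumours were below both controls (30.7%). The log2 fold changes differ by 7.67, and this difference was not tested. Cyp4a10 passed the threshold in neither comparison (limma adjusted p = 0.22 and 0.0501), and without sgKeap1 tumour 2 its log2 fold change in sgKeap1 was 1.42 instead of 3.66.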

How the results depend on the processing

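The 24 log2 fold changes of members called somewhere, taken where their unadjusted p was under 0.05, kept their sign under every alternative run: 309 kept their side of the threshold, 16 moved past it and 28 fell short. Members outside these did change sign with a tumour left out, among them Cyp2e1 in sgNrf2, from -0.59 to 1.06 without control B, and Cyp4a14 in sgKeap1, from 0.54 to -1.42 without sgKeap1 tumour 2. In sgCul3 the members called higher, 1 as reported, were 3 with DESeq2 and 0 to 1 with a tumour left out, and those lower, 0 as reported, were 2 with DESeq2. In sgKeap1 the 6 called higher were 10 with edgeR, 10 with DESeq2, 10 with the tumour number as a block, and 2 to 7 with a tumour left out (2 without sgKeap1 tumour 2, and 3 without sgGFP tumour 1, sgGFP tumour 3 or sgKeap1 tumour 3), and 1 was lower, Cyp3a16, with quantile normalization, DESeq2 or the 2 groups alone. Without tumours 2 of both ligase guides, an alternative chosen after seeing the data, 4 were higher: Cyp2a4, Cyp2a5, Cyp2j6 and Cyp2j9. Between sgKeap1 and sgCul3 the 0 higher became 1 with DESeq2 (Cyp2a5), 1 with the block (Cyp2j6) and 0 to 2 with a tumour left out (2 without sgCul3 tumour 2). In sgNrf2 the 1 higher became 2 without the filter, 3 with equal totals, 7 with DESeq2, 2 with the block and 0 to 6 with a tumour left out (6 without control A, 3 without control B, 0 without sgNrf2 tumour B). The 3 lower became 5 with equal totals, 5 with quantile normalization, 1 with edgeR, 11 with DESeq2 and 0 to 16 with a tumour left out (16 without control A, 0 without either sgNrf2 tumour). The causes were not tested. In sgCul3 the block kept the same counts, 1 higher and 0 lower. In no comparison were the tumour numbers or letters shown to pair tumours. Outside sgCul3 against sgGFP the correlations were 0.199, 0.0425 and -0.0941 for sgKeap1 and sgGFP. They were 0.239, 0.518 and 0.0980 for sgKeap1 and sgCul3, and -0.0006 for sgNrf2 and its controls. With equal totals the median of all genes was -0.21 in sgKeap1 (-0.01 as reported), -0.24 between the ligase guides (0.00) and 0.34 in sgNrf2 (0.04), where the members' medians were 1.53, 0.67 and 0.19. Where a group is left with 1 tumour, it is assumed to vary like the others. The limits are few tumours, 1 tumour that leads most members, low counts of Cyp1a1, Cyp2a4 and Cyp2j9 in controls, and paralogs: 31 of 60 members share over 10% of their 50-base windows with another gene.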
